A study of Homo sapiens with 8 samples.

Results

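CRIM1 and its flanks were examined in H3K27ac peak lists from A549 cells, an established human lung adenocarcinoma line that the series describes as NRF2-activated. The members were the peaks of 4 lists that overlapped chromosome 2, 36500001 to 36850000 (hg19). CRIM1 itself spans 36.583 to 36.778 Mb on the plus strand. The stretch was picked because earlier results on these same files showed more acetylation there after CEBPB knockdown, so every difference between treatments below is a description and carries no test. With 2 libraries against 2, an exact permutation p could in any case not go below 0.333. Overlapping peaks of the 4 lists merged into 44 regions in the window, of 60669 regions on chromosomes 1 to 22 and X.

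The controls were 2 libraries of A549 cells transfected with a control siRNA. The knockdown group was 1 library of A549 cells that received CEBPB siRNA-1 and 1 that received CEBPB siRNA-2, and its spread cannot be told apart from a difference between the siRNAs. Per the labels' protocols the medium was changed 24 h after transfection, and cells were harvested 48 h after transfection. Whether the controls were separate cultures is not stated in the labels, and their spread may be technical. How far the siRNAs lowered CEBPB was not measured by these libraries.

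CRIM1 encodes a cysteine-rich transmembrane protein. It binds bone morphogenetic proteins (BMPs) in the cells that make them and limits their processing and release, and it is known from the development of kidney, eye and vessels. H3K27ac, acetylation of a lysine in the tail of histone H3, marks active promoters and enhancers, and long runs of it often cover several enhancers of a gene. CEBPB, the siRNA target, is a basic leucine zipper transcription factor. In the RefSeq order of genes (GRCh38.p14), the next protein-coding gene beyond the end of CRIM1 is FEZ2, a relative of a protein of axon bundling and outgrowth, followed by VIT. The lncRNA CRIM1-DT lies directly before CRIM1, and 2 lncRNA loci, LOC124907753 and LOC124905989, start after CRIM1 and before FEZ2. These genes are named for their order alone and were not placed on the peaks. Regions described below by their distance from CRIM1 may therefore lie within another of these genes.

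Across the whole lists, the controls had 45537 and 45651 peaks and the knockdown libraries 47370 after siRNA-1 and 48216 after siRNA-2. Called length, the number of bases under peaks, was 67.9 and 62.1 Mb in the controls and 70.4 and 61.7 Mb after siRNA-1 and siRNA-2. The lists carry no read counts. Sequencing depth is therefore unknown, and a stretch without a peak is one where none was called, not one shown to lack acetylation.

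CRIM1 was already covered by strong peaks in control cells, and more of the window was covered after knockdown. In the window the controls had 60.6 and 56.6 kb of called length, against 89.3 kb after siRNA-1 and 86.0 kb after siRNA-2. Both knockdown values lay above both control values, and the libraries within each group were close. The mean was 58.6 ± 2.81 kb in controls and 87.7 ± 2.36 kb after knockdown (SD, n = 2 each), a difference of 29.1 kb and a ratio of 1.496. Within the numbers of the labels, the knockdown library had 28.7 kb more than control 1 for number 1 and 29.4 kb more than control 2 for number 2. The window took 0.893‰ and 0.912‰ of all called bases in the controls, against 1.27‰ after siRNA-1 and 1.39‰ after siRNA-2, so the order of the libraries did not follow their total called length.

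The number of peaks did not describe the window in the same way. There were 34 and 33 peaks in the controls, 36 after siRNA-1 and 53 after siRNA-2. The siRNA-1 library thus had nearly as few peaks as the controls but wider ones, with a median width of 963 bp against 744.5 and 791 bp in the controls. The siRNA-2 library had many short peaks, with a median width of 538 bp. Peaks of 4 kb or more numbered 5 in control 1, 3 in control 2 and 8 in each knockdown library. No such count is given for the whole lists, so whether this is particular to the window is not known.

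**Figure D1:**
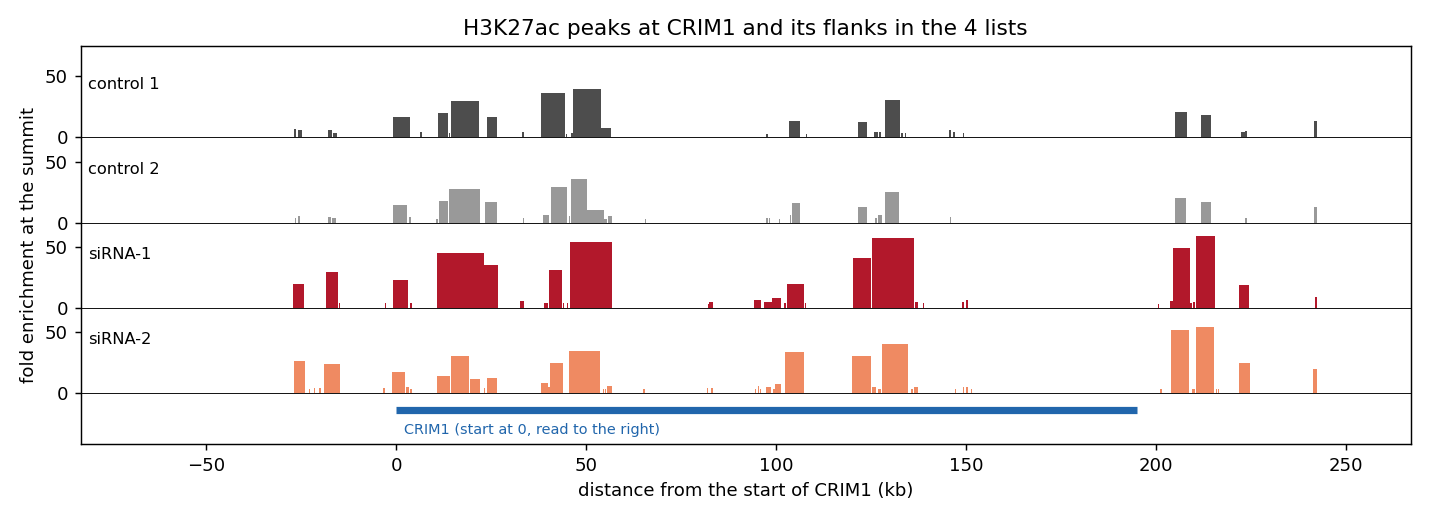
Each box is a peak in 1 of the 4 lists, drawn over its span in kb from the start of CRIM1, with its height giving the authors' fold enrichment at the summit; the blue bar is CRIM1. The same clusters appear in all 4 rows, and the boxes around 122.9, 130.6, 206.2 and 213.2 kb are broader in the 2 knockdown rows than in the 2 control rows.

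The added length was spread over all 3 sections of the window. Upstream of CRIM1, 4.17 and 3.55 kb were called in the controls, against 7.62 kb after siRNA-1 and 10.5 kb after siRNA-2. Within the gene, 48.4 and 46.3 kb were called in the controls, against 67.6 and 60.4 kb. Beyond the end of the gene, 8.09 and 6.82 kb were called in the controls, against 14.1 and 15.1 kb. In each section both knockdown libraries lay above both controls. The knockdown to control ratio of the means was 2.34 upstream, 1.35 within CRIM1 and 1.96 downstream, so in kb the gene itself held most of the difference and in proportion the flanks did. The gene is also the longest section, with 195 kb against 83 kb upstream and 72 kb downstream.

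**Figure D2:**
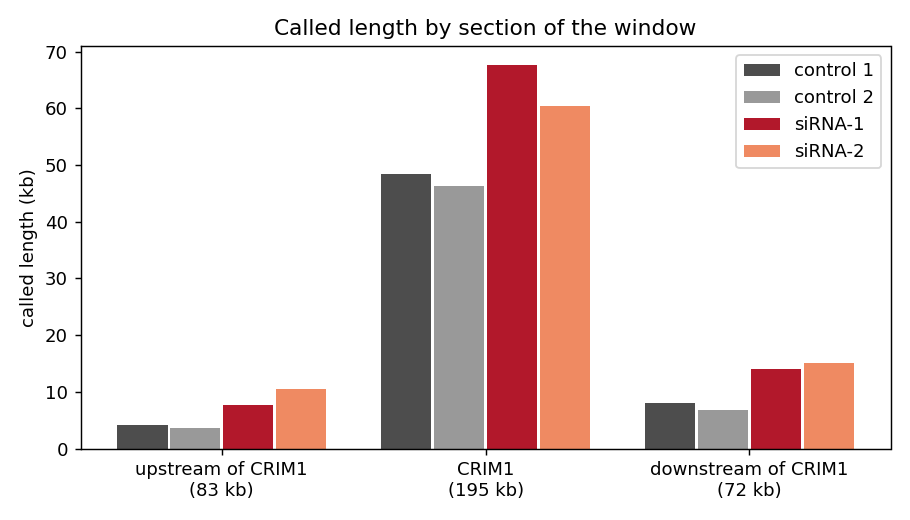
Bars give the called length in kb in each of the 4 libraries for the part of the window before CRIM1, for CRIM1 and for the part after it. Every pair of knockdown bars stands above the pair of control bars of its section, from 4.17 kb or less against 7.62 kb or more upstream to 48.4 kb or less against 60.4 kb or more in the gene.

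Of the 44 regions, 16 had a peak in all 4 lists (kept), 7 had a peak with both siRNAs and in neither control (gained), 1 had a peak in both controls and with neither siRNA (lost), and 20 had another pattern. Among all merged regions 39.8% were kept, 6.76% were gained and 7.01% were lost. In the window the shares were 36.4% kept, 15.9% gained and 2.27% lost. These counts moved with the settings: a reciprocal overlap of 50% gave 12 gained and 8 lost, and equal called length in all lists gave 3 gained and 1 lost. The upstream flank held 1 gained and 2 kept regions, CRIM1 with its start 4 gained, 1 lost and 10 kept, and the downstream flank 2 gained and 4 kept. Leaving out the siRNA-1 list gave 18 gained regions, since a call after siRNA-2 alone was then enough, and leaving out control 1 or control 2 gave 2 or 3 lost regions. The shares over all merged regions are those of the main setting. None is given for the other settings, so their counts have no background beside them.

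The 7 gained regions were short and weak. In none did both knockdown lists reach a −log10 q of 10, as they did in 21.1% of all 4103 gained regions. Their median fold enrichment at the summit was 4.57 after siRNA-1 and 3.85 after siRNA-2, against 5.49 and 5.17 over all gained regions, and their median width was 564 bp against 768 bp. These fold enrichments are the authors' own values per peak and depend on the depth of each list, so they serve here to describe and order peaks within a list. The longest was 1998 bp (chromosome 2, 36677173 to 36679170), 95.0 kb beyond the start of CRIM1, with fold enrichments of 6.01 and 5.78. It was 1 peak after siRNA-1 and 3 short peaks after siRNA-2, and it lay 747 bp from the nearest kept region. The region with the highest fold enrichment among the gained in the siRNA-1 list lay 150.3 kb beyond the start (36733127 to 36733558), with 6.71 and 4.94 for the siRNAs. It was 12735 bp from the nearest kept region.

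A pair of gained regions lay 82.0 and 83.0 kb beyond the start (36664886 to 36665322 and 36665438 to 36666474), in a part of CRIM1 where neither control had a peak. Their fold enrichments were 3.21 and 4.83 after siRNA-1 and 3.85 and 4.36 after siRNA-2. Another pair (36792060 to 36792670 and 36792717 to 36793280) filled most of the gap between 2 strong kept regions downstream of the gene, 129 bp from one and 307 bp from the other. The seventh, of 299 bp (36580193 to 36580491), lay 2.6 kb before the start. Summits of the 2 knockdown libraries in the gained regions were between 19 and 588 bp apart. With peaks joined across gaps of up to 1 kb there were 3 gained regions. The one before the start remained, the pair at 82.0 and 83.0 kb became 1, and 2 stretches called by 1 siRNA each joined into another (36783637 to 36784546). Of the other 4, 3 became part of kept regions and 1, at 150.3 kb, joined a region with a control 1 peak.

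The lost region was also weak. It covered 497 bp within CRIM1 (36728666 to 36729162), 145.9 kb beyond the start, and its fold enrichment was 5.62 in control 1 and 4.20 in control 2. The 20 remaining regions were mostly called once: 11 after siRNA-2 only, 3 after siRNA-1 only, 2 in control 1 only and 1 in control 2 only. Among all 60669 merged regions these counts were 4840, 7951, 4718 and 2851, so there siRNA-1 only was the most frequent. The other 3 of the 20 were called in 2 or 3 lists. The strongest of these lay 100.8 kb beyond the start (36682031 to 36684438), with a fold enrichment of 3.19 over 238 bp in control 2 and none called in control 1. There 8.17 over 2408 bp was called after siRNA-1 and 7.39 over 2084 bp after siRNA-2.

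Most of the added bases lay inside regions that the controls also had. Bases called with both siRNAs and in neither control came to 20.5 kb, of which 15.5 kb lay in kept regions, 3.07 kb in gained regions and 1.93 kb in the others. Bases called in both controls and with neither siRNA came to 1.17 kb, all of them within CRIM1. All 4 lists shared 47.2 kb. Of the bases called with both siRNAs, 26.6% were in neither control, and of those called in both controls 2.27% were with neither siRNA. Over the whole series these shares were 12.6% and 12.4%.

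Of the 16 kept regions, 10 had more called length with both siRNAs than in both controls and 1 had less. Among all 24133 kept regions, 26.9% had more and 25.6% less. The median knockdown to control ratio of called length was 1.79 over the 16 and 1.01 over all kept regions. All 16 together covered 58.8 and 55.7 kb in the controls, against 80.5 kb after siRNA-1 and 76.5 kb after siRNA-2, a ratio of 1.37. Of this, the 10 covered 27.6 and 24.0 kb in the controls, against 47.2 kb after siRNA-1 and 45.7 kb after siRNA-2. The other 6 covered 31.2 and 31.7 kb in the controls, against 33.3 and 30.7 kb. The 10 were set apart by these same lengths, so the contrast between the 10 and the 6 follows from the split.

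In 8 of the 16, both outer edges lay further out in both knockdown lists than in both control lists, which 12.4% of all kept regions showed. The mean outward distance over these 8 ranged from 306 to 1600 bp at the left edge and from 591 to 4018 bp at the right edge. The median distance of the best summits over the 16 regions was 77 bp between the siRNAs and 114.5 bp between the controls. Between a control and the knockdown library of the same number, the distances for both numbers were first averaged per region. The median of these averages was 139 bp. Over all kept regions these medians were 73, 69 and 102.5 bp. A median of averages is not the same measure as a median of single distances, so the last value cannot be set directly against the others.

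**Figure D3:**
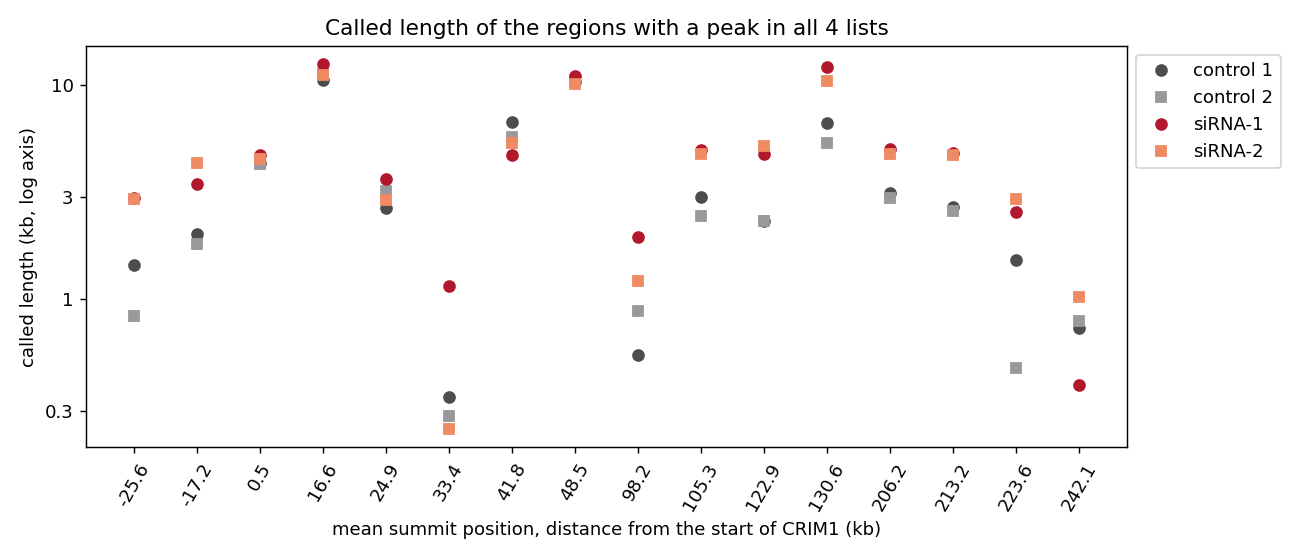
Points give the called length (kb, log axis) of each of the 16 kept regions in the 4 libraries, ordered by the distance of the mean summit from the start of CRIM1. The knockdown points lie above the control points in 10 regions, among them all of those from 98.2 to 223.6 kb, and below them in the region at 41.8 kb.

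The region over the start of CRIM1, where its promoter lies, differed little in length. It covered 36582037 to 36587144, and 4324 and 4281 bp of it were called in the controls, against 4702 bp after siRNA-1 and 4491 bp after siRNA-2. Although both knockdown values were higher, the ratio was 1.07. Its fold enrichment was 16.9 in control 1, 14.2 in control 2, 22.8 after siRNA-1 and 17.1 after siRNA-2.

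The first part of the gene held the 2 regions with the highest fold enrichment in both controls. In its 2 longest regions the lengths were similar between the groups. The region from 36628418 to 36639878, 48.5 kb beyond the start, had the highest fold enrichment of the window in both controls, 39.7 and 36.1. In that region 10.2 and 10.5 kb were called in the controls and 10.9 and 10.1 kb with the siRNAs. A region of 12.5 kb (36593567 to 36606114) had 10481 and 11233 bp called in the controls, against 12457 and 11131 bp. The groups overlapped in both, as they did in the shorter regions at 24.9 and 33.4 kb.

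The region at 41.8 kb (36621041 to 36628006) was the one that was shorter with both siRNAs. It had 6690 and 5704 bp called in the controls, against 4685 bp after siRNA-1 and 5325 bp after siRNA-2. It was second by fold enrichment among the 16 kept regions in both controls, and eighth and ninth in the knockdown lists. Its fold enrichments were 36.49, 29.3, 31.0 and 25.1 in control 1, control 2, siRNA-1 and siRNA-2.

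Further into the gene the regions were longer with the siRNAs. The longest of these (36708161 to 36720391), 130.6 kb beyond the start, had 6637 and 5375 bp called in the controls, against 12056 bp after siRNA-1 and 10392 bp after siRNA-2. Its right edge lay 4018 bp further out on average, the largest outward distance of any edge in the window. Directly before it, the region at 122.9 kb (36702891 to 36708065) had 2319 and 2306 bp called in the controls, against 4745 and 5175 bp. The groups did not overlap in these regions, and in the second the controls were nearly equal. At 105.3 kb (36685090 to 36690376) 3000 and 2452 bp were called in the controls, against 4952 and 4775 bp. A weaker region at 98.2 kb (36679918 to 36681870) had 550 and 886 bp called in the controls, against 1953 and 1217 bp.

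Downstream of CRIM1, 3 regions were likewise longer in both knockdown libraries. The first, 206.2 kb beyond the start of the gene (36786765 to 36791930), had 3143 and 2964 bp called in the controls, against 5040 bp after siRNA-1 and 4730 bp after siRNA-2. Its fold enrichment was 20.7 and 20.3 in the control lists and 48.8 and 51.7 in the knockdown lists. Within the lists this was rank 5 of the 16 kept regions in both controls, 4 after siRNA-1 and 2 after siRNA-2. The second, at 213.2 kb (36793588 to 36798440), had 2682 and 2588 bp, against 4791 and 4721 bp. By fold enrichment it was sixth and seventh of the 16 kept regions in the controls, with 17.9 and 16.5, and first in both knockdown lists, with 59.0 and 54.2. The last of these, at 223.6 kb (36804785 to 36807718), had 1528 and 477 bp in the controls, against 2555 and 2934 bp.

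Upstream of CRIM1, 2 regions were short and weak in the controls and strong in the knockdown lists. At 25.6 kb before the start (36555896 to 36559032), 1440 and 835 bp were called in the controls, each as 2 peaks, against single peaks of 2969 and 2946 bp with the siRNAs. Its fold enrichment was 6.62 and 5.47 in the control lists and 19.9 and 26.7 in the knockdown lists. Within the lists this was rank 12 of the 16 kept regions in both controls, 11 after siRNA-1 and 8 after siRNA-2. At 17.2 kb before the start (36564058 to 36568392), 2017 and 1804 bp were called in the controls, against 3449 and 4335 bp. Fold enrichment there was 5.92 and 4.53 in the control lists, and 29.2 and 24.1 in the knockdown lists. Within the lists this was rank 13 in both controls, 9 after siRNA-1 and 11 after siRNA-2.

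A narrow region at the far end of the window, 242.1 kb beyond the start (36824454 to 36825479), did not separate the treatments. It had 735 and 791 bp called in the controls, 397 bp after siRNA-1 and 1026 bp after siRNA-2, so the 2 knockdown libraries lay on either side of the controls.

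Since fold enrichments could not be set against each other between lists, each kept region was also described by its fold enrichment divided by that over the CRIM1 start in the same list. The 3 downstream regions from 206.2 to 223.6 kb, both upstream regions and the regions at 122.9 and 130.6 kb had a higher quotient in both knockdown lists than in both controls, which makes 7 of the other 15. No such share was computed outside the window, which was picked for more acetylation, so whether 7 of 15 is unusual is not known. At 213.2 kb the quotient was 1.06 and 1.16 in the controls, against 2.59 after siRNA-1 and 3.16 after siRNA-2. At 122.9 kb it was 0.762 and 0.886, against 1.78 and 1.75. The quotient was lower with both siRNAs in 2 regions, at 33.4 and 41.8 kb. The one at 33.4 kb was weak, with fold enrichments of 4.70 and 3.95 in the controls, 5.27 after siRNA-1 and 2.76 after siRNA-2. After siRNA-1 its quotient was thus lower only through the larger value over the start. At 41.8 kb the quotient was 2.15 and 2.06 in the controls, against 1.36 and 1.47. The strongest control region, at 48.5 kb, had 2.34 and 2.54 against 2.38 and 2, with overlapping groups. A quotient rests on a single peak over the start in each list, so all quotients of a list share its error.

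**Figure D4:**
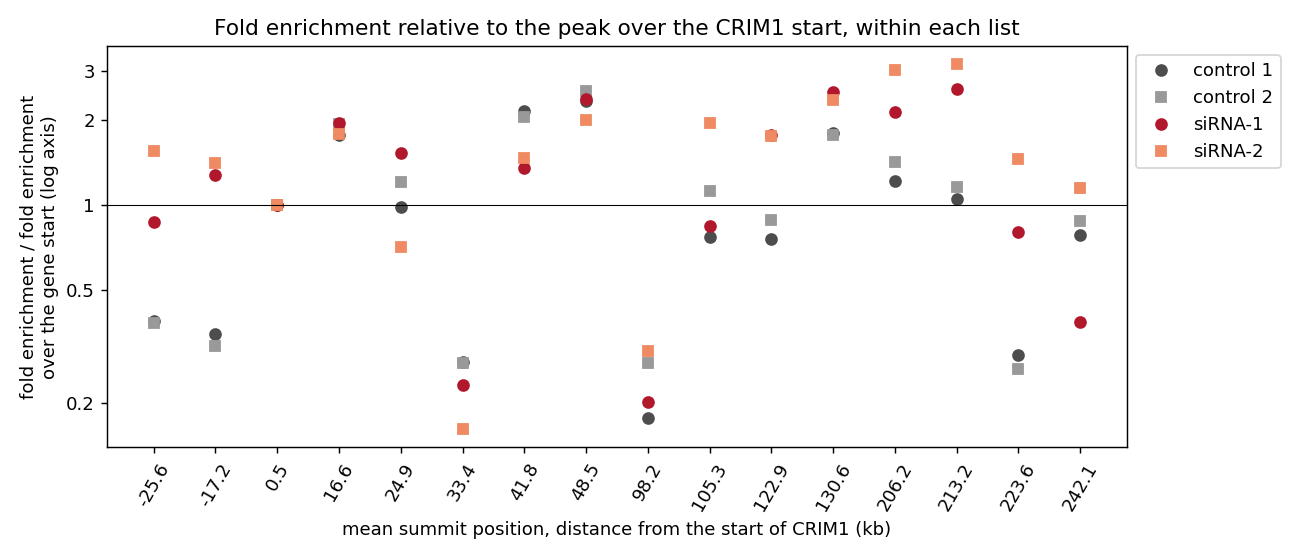
Points give the fold enrichment of each kept region divided by that of the region over the CRIM1 start in the same list (log axis; 1 marks the start), ordered along the gene. Both knockdown points lie above both control points at -25.6, -17.2, 122.9, 130.6, 206.2, 213.2 and 223.6 kb.

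Long stretches of the window had no peak in any list. The first 55.9 kb of the window, 49.1 kb around the end of CRIM1 (36734554 to 36783636) and 24.5 kb at the far end were empty. The window's left edge was therefore set in open ground: the nearest peak before it lay 284.8 kb away in control 1, 284.5 kb in control 2, 491.3 kb after siRNA-1 and 491.2 kb after siRNA-2. Just inside it, the first peak measured 531 and 278 bp in the controls and 2969 and 2946 bp with the siRNAs. The right edge was less clear cut. Just inside it, the last peak measured 735 and 791 bp in the controls and 397 and 1026 bp with the siRNAs. Just outside, 26.7 to 26.9 kb beyond the edge, a peak of 697 and 496 bp in the controls measured 1462 bp after siRNA-1 and 1615 bp after siRNA-2.

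Set among stretches of the same length, the window stood near the top of a distribution from which it had been picked. Chromosomes 1 to 22 and X were divided into stretches of 350 kb aligned to it, and 2465 of these had 10 or more merged regions. The median knockdown minus control difference in called length was 0.41 kb, with a range from -60.8 to 45.2 kb. The window had rank 4 by difference, with 29.1 kb, and rank 356 by ratio (0.58 on the log2 scale, against a median of 0.04). Its mean called length over the 4 libraries, 73.1 kb against a median of 15.9 kb, had rank 38, so a large difference in kb went with a large amount called. Both knockdown libraries lay above both controls in 33.6% of the 2465 stretches.

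**Figure D5:**
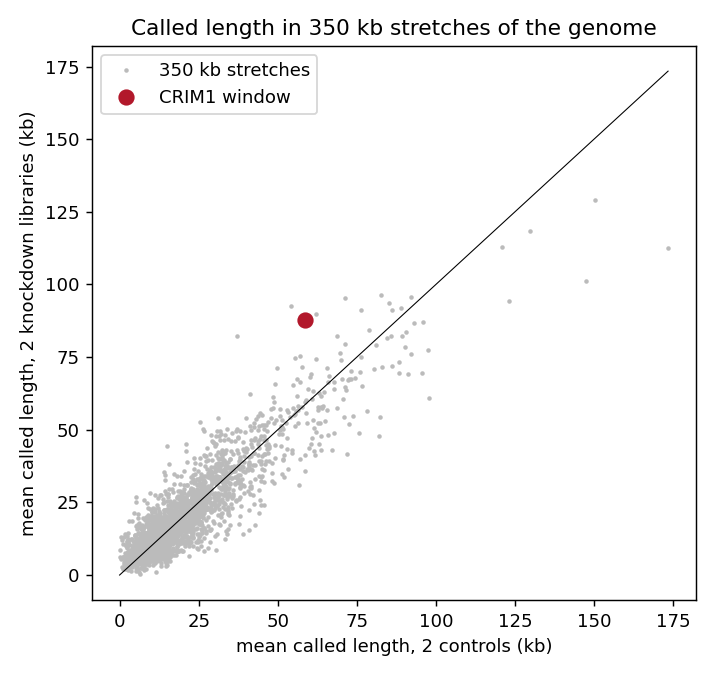
Each grey point is a stretch of 350 kb, with the mean called length (kb) of the 2 controls on the horizontal axis and of the 2 knockdown libraries on the vertical axis; the line marks equal lengths. The CRIM1 window, in red, lies above the line at 58.6 and 87.7 kb.

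Likeness to the window was measured as the Euclidean distance between the called lengths in the 4 libraries, each divided by its mean over them, so it rests on 4 values per stretch. For the window these were 0.83, 0.77, 1.22 and 1.18 in control 1, control 2, siRNA-1 and siRNA-2. The 5 closest stretches had distances from 0.032 to 0.048. They lay on chromosome 12 at 6.05 to 6.40 Mb, chromosome 3 at 33.00 to 33.35 Mb, chromosome 19 at 42.45 to 42.80 Mb, chromosome 11 at 85.15 to 85.50 Mb and chromosome 8 at 23.20 to 23.55 Mb. All 5 had less called, at most 32.6 kb in any library. They held between 1 and 3 gained and 0 lost regions each, of 10 to 19 regions, beside 6.76% gained and 7.01% lost among all merged regions. The stretches were chosen for less called in the controls than after knockdown, so these counts are not independent of the choice.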

How the data were processed

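H3K27ac was measured by chromatin immunoprecipitation and sequencing of single-end reads of 101 bases, per the labels' protocols. The submitters' processing notes name BWA 0.7.17, SAMtools 1.7.0, MACS2 2.2.7.1 and hg19. Their options, and the use made of the 4 input libraries, were not given in the sources used here. The authors deposited 1 peak list per library, with a fold enrichment (a linear ratio) at the summit, a −log10 p, a −log10 q and a score that follows the −log10 q. The inputs were not analysed here.

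On chromosomes 1 to 22 and X, peaks of different lists were merged at an overlap of 1 bp or more with Python 3.11.15 and numpy 2.4.6, and the merging was tested on simulated lists. Each simulated peak was a merged region with its ends trimmed, so the merging of split or bridging peaks was not tried. The best peak of a region was the one with the highest −log10 q in a list. No test was made between treatments. The rule for regions given in full took gained regions where both knockdown lists reach a −log10 q of 10 (0 did), lost regions, and kept regions over the gene start or longer with both siRNAs. The other regions in the text were chosen after their values were seen. The members and lists were chosen with earlier results of these data known. BMP pathway genes were not placed, because the annotation used here is of another build than the peaks, and motifs were not searched.

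Alternatives were a −log10 q of 10 or more, equal called length, other window limits, a reciprocal overlap of 50%, joined gaps, label numbers as pairs, and each library left out.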

Additional observations from a re-analysis of the deposited data

How the results depend on the processing

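The difference in called length, knockdown minus control, was positive under all 9 alternatives tried, and ranged from 27.1 to 31.0 kb without each library in turn. Leaving out a library could not change the sign, because both knockdown values lay above both control values. The difference was 26.1 kb with peaks of a −log10 q of 10 or more only and 16.7 kb for CRIM1 alone, where less sequence enters. The label numbers do not state that samples are paired. With the numbers as a replicate block the difference was 29.1 kb. With 1 library of each group per number this must equal the value without the block, so it is no check. Bases called with both siRNAs and in neither control came to 12.7 kb for CRIM1 alone and to 23.3 to 29.1 kb without each library, where fewer calls or absences are required. Gained regions numbered 3 with a −log10 q of 10 or more for all peaks, 0 with it only where called, 3 at equal called length, 4 for CRIM1 alone, 3 with gaps of up to 1 kb joined and 12 at a reciprocal overlap of 50%. Without each library they ranged from 8 to 18. The 3 with the −log10 q limit on all peaks were none of the gained regions of the main setting. They lay at -17.2, 100.8 and 223.6 kb from the start, where each control peak fell below the limit and was dropped. Lost regions numbered 0 with a −log10 q of 10 or more for all peaks or where called, 0 with gaps joined and 8 at a reciprocal overlap of 50%, and 1 to 3 without each library. Counts of regions thus moved both with the peaks admitted and with how regions were formed. The cause was not tested. No share over all merged regions is given for these alternatives, so their counts have no background beside them. Sequencing depth, unknown here, limits what a missing peak can show.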
